A study of Mus musculus with 384 samples.

Results

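The CC chemokines are small secreted proteins, named for a pair of neighbouring cysteines near the start of the mature protein, that guide leukocytes along a gradient. Ccl2, Ccl7 and Ccl12 are monocyte chemoattractant proteins, which act through the receptor Ccr2 and draw monocytes out of the bone marrow and into injured tissue. Ccl3 and Ccl4 are the macrophage inflammatory proteins 1-alpha and 1-beta, and Ccl5 is also called RANTES. Ccl3 and Ccl5 act through Ccr1 among other receptors, and Ccl5 is a typical product of activated T cells and natural killer (NK) cells. In the kidney, macrophages, tubule cells and stromal cells can all make CC chemokines after injury.

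The genes described here were these 6 of the 40594 genes counted in both batches, taken by their symbols, each of which belonged to 1 Ensembl identifier. The series profiled single cells of mouse kidney, from animals 8 weeks old, that were sorted as positive for PDGFRB, a receptor of pericytes and fibroblasts, and as either negative or positive for CD45, the common leukocyte antigen. There were 4 groups, CD45- batch 1, CD45- batch 2, CD45+ batch 1 and CD45+ batch 2, each of them 1 plate of 96 wells with 1 cell sorted per well. Kidneys of all groups were perfused, minced and digested with Liberase TL, and no genotype, strain, operation or treatment was given in the labels, whose well names carry an abbreviation (UUO) that they do not spell out. No animal was named for any well, so a plate was treated as 1 sample, the other batch was the only repeat, and no test was made across wells. Well numbers run from 1 to 96 within each plate and mark the same plate position in every plate.

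Of the 384 wells, 93 CD45- wells in each batch and 92 and 90 CD45+ wells in batches 1 and 2 had at least 10000 reads and 500 genes and were kept as cells. Summed reads per plate were between 26513530 and 31778475. The sort showed in the transcripts: all 8 leukocyte markers were at least 4-fold higher in CD45+ in both batches, while Pdgfrb, in CPM (reads of a gene per 1e6 reads of the plate), was 294 in CD45- batch 1 and 220 in batch 2 but 0.113 and 5.73 in CD45+. The CD45+ wells thus carried the CD45 label in their RNA and hardly any transcript of PDGFRB.

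The adjacent cysteines show which part of the coding sequence the family shares. The stretches below are 60 bases each from the GENCODE M21 coding transcripts (GRCm38, chromosome 11), 5′ to 3′ in the direction of the gene, and the capitals mark the codons of the neighbouring cysteines.
Ccl2: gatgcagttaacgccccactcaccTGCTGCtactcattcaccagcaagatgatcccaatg
Ccl7: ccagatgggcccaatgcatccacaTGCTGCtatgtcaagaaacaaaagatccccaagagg
Ccl12: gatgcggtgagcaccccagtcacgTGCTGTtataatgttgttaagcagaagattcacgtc
Ccl3: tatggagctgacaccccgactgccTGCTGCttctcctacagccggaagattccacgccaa
Ccl4: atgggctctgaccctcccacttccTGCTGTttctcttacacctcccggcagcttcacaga
Ccl5: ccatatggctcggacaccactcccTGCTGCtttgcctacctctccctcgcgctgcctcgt
Each stretch began at the end of exon 1 and ran into exon 2 of 3, and the capitals lay in exon 2, at chr11:82036506-82036511 (Ccl2, + strand), chr11:82046538-82046543 (Ccl7, +), chr11:82102634-82102639 (Ccl12, +), chr11:83648652-83648657 (Ccl3, -), chr11:83663482-83663487 (Ccl4, +) and chr11:83529242-83529247 (Ccl5, -). The cysteines were residues 34 and 35 of the precursor in Ccl2, Ccl3 and Ccl4, and residues 33 and 34 in Ccl7, Ccl12 and Ccl5.

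The genes lay in neighbouring groups on the chromosome. Ccl2, Ccl7 and Ccl12 lay within 67.8 kb (chr11:82035571-82103400), with Ccl11 between them, and Ccl5, Ccl3 and Ccl4 within 139 kb (chr11:83525778-83664683), with Ccl9 and Ccl6 between them. Over aligned coding sequences, Ccl3 and Ccl4 were the most alike of the 15 pairs, with 69.5% identical positions, followed by Ccl7 and Ccl12 with 64.6%. Ccl2 and Ccl12 were identical at 51.9% of positions, with a coding sequence of 444 bases in Ccl2 and of 273 to 312 bases in the other 5. No stretch of 50 bases, the length of 1 read, of any of the 6 coding transcripts occurred on either strand in a transcript of another gene in that annotation, so exact sharing of reads between these genes was not found. In GENCODE M21, 1 of the 6, Ccl2, overlaps another gene, Gm17268 on the opposite strand, and in the RefSeq table for GRCm38.p6 a predicted model of Ccl4 reaches across Ccl3. Whether counting used strand was not given in the sources used here, so reads of overlapping models could not be told apart.

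All 6 chemokines were higher in CD45+ than in CD45- in both batches. A gene was called higher when the log2 ratio of CPM plus 1, CD45+ over CD45-, was at least 2 (4-fold) in both batches, which held for 6 of 6 chemokines and for 4.33% of the 12882 genes with at least 1 CPM on average. The median log2 ratio of the 6 was 8.50 in batch 1 and 6.48 in batch 2, against -0.39 and -0.56 over all genes tested. Their reads together made up 2.45% and 1.66% of all reads of the CD45+ plates, and 0.00745% and 0.0289% of those of the CD45- plates. In bulk sums of this kind, more cells with a transcript and more transcript per cell cannot be told apart, so the wells are described next.

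**Figure D1:**
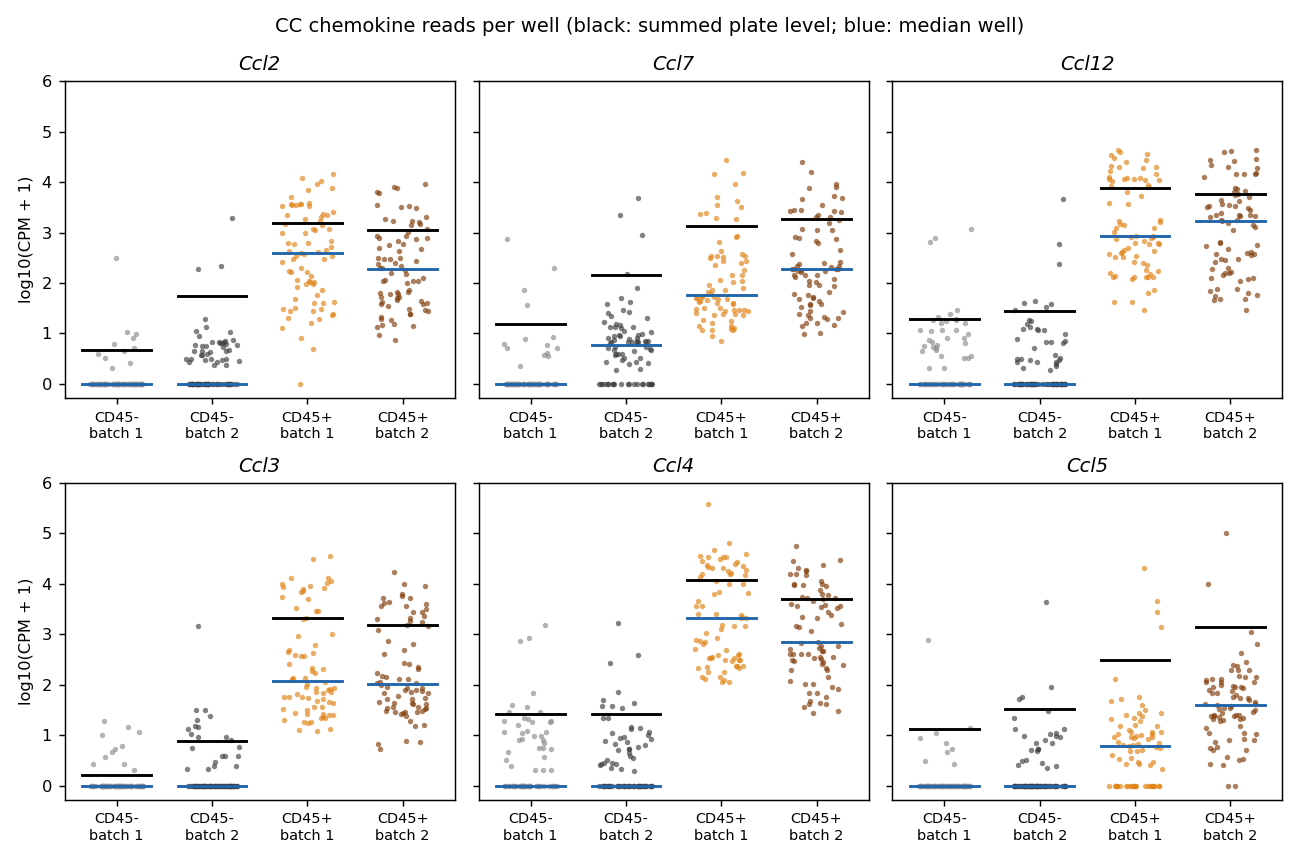
Each panel shows 1 chemokine, with log10(CPM + 1) per well on the vertical axis and the 4 plates on the horizontal axis, for wells of at least 50000 reads (79 and 82 CD45-, 76 and 78 CD45+ in batches 1 and 2). Black lines are the level of the summed plate and blue lines the median well: in the CD45- plates few wells stand far above a median at or near 0, and for Ccl5 a few wells stand apart in the CD45+ plates too.

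The monocyte chemoattractants were spread over many CD45+ wells. Among the CD45+ wells of at least 50000 reads, Ccl2 had a lowest, median and highest level of 0, 385 and 14468 CPM in batch 1 and of 6.39, 189 and 9076 CPM in batch 2. In the CD45- wells of that depth the median was 0 CPM in both batches and the highest well had 316 and 1896 CPM. The wells of the gates therefore overlapped, through few CD45- wells. Summed over a plate, Ccl2 had 1534 CPM in CD45+ and 3.61 CPM in CD45- of batch 1, a log2 ratio of 8.38. In batch 2 it had 1116 and 54.3 CPM, a log2 ratio of 4.34.

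The reads of Ccl7 were concentrated in fewer wells than those of Ccl2. It had a median of 56.1 CPM and a highest well of 27260.5 CPM in CD45+ batch 1, and 185 and 24637 CPM in batch 2. In batch 1, well 67 alone held 34.4% of the plate's Ccl7 reads and well 49 brought the share to 55.5%, so that 2 wells held more than all others together. In batch 2, 3 wells were needed to pass 50% of the reads, where Ccl2 needed 8 and 5. The plate sums in batch 1 were 1364 CPM for CD45+ and 14.1 CPM for CD45- (log2 ratio 6.50). In batch 2 they were 1847 and 145 CPM (log2 ratio 3.67).

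Ccl12, a mouse chemokine close to Ccl2 in function, was widespread. Its lowest, median and highest CD45+ wells stood at 27.9, 851 and 42425 CPM in batch 1 and at 28.3, 1723 and 42462 CPM in batch 2. Its plate sums gave 7664 CPM for CD45+ and 18.4 CPM for CD45- in batch 1, and 5813 and 26.8 CPM in batch 2, with log2 ratios of 8.62 and 7.71. The median CD45- well had 0 CPM in both batches.

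Of the macrophage inflammatory proteins, Ccl3 was high in a minority of CD45+ wells, while Ccl4 took up to a large part of a well's reads. Ccl3 had a median of 116 CPM in batch 1 and 103 CPM in batch 2, with highest wells of 34785 and 17122 CPM, and 27.6% (21 of 76) and 29.5% (23 of 78) of wells stood at 1000 CPM or more. Exact 95% intervals, which cover counting error only, were 17.99 to 39.1% and 19.7 to 40.9%. The plate sums of Ccl3 were 2073 CPM for CD45+ and 0.613 CPM for CD45- in batch 1 (log2 ratio 10.33), and 1533 and 6.64 CPM in batch 2 (log2 ratio 7.65). Ccl4 had medians of 2105 and 685 CPM and highest wells of 371679 and 56735 CPM. In well 10 of batch 1, a well of 75837 reads, Ccl4 took 37.2% of all reads and the 6 chemokines together 40.8%. The other CD45+ plate had no such well, its highest summed share being 10.2%, in well 53. The plate sums of Ccl4 in CD45- were 25.7 and 24.8 CPM, and its log2 ratios were 8.76 and 7.56. Its CD45+ sums were 11596 CPM in batch 1 and 4868 CPM in batch 2, a 2.38-fold difference, where Ccl2, Ccl7, Ccl12 and Ccl3 differed 1.32-fold to 1.37-fold. No replicate within a batch exists to set this against.

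Most CD45+ reads of Ccl5 lay in few wells. Its median CD45+ well had 5.18 CPM in batch 1 and 38.1 CPM in batch 2, and the highest had 20672 and 101135 CPM. In batch 1, 55.98% of its CD45+ reads lay in well 30, and 78.9% there and in well 73. In batch 2, 68.6% lay in well 53, and 94.8% there and in well 71. The plate sums were 303 CPM for CD45+ and 11.99 CPM for CD45- in batch 1 (log2 ratio 4.55), and 1392 and 31.9 CPM in batch 2 (log2 ratio 5.40). Without well 30 alone the ratio was 3.38, and without well 53 alone 3.75. Without the pair of CD45+ wells with most Ccl5 reads, the ratio fell to 2.37 in batch 1 and to 1.23 in batch 2, under the 4-fold limit, and 5 of 6 members were then called. Ccl5 was 4.60-fold higher in CD45+ batch 2 than in batch 1. Without wells 53 and 71 its level in batch 2 was 76.2 CPM.

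**Figure D2:**
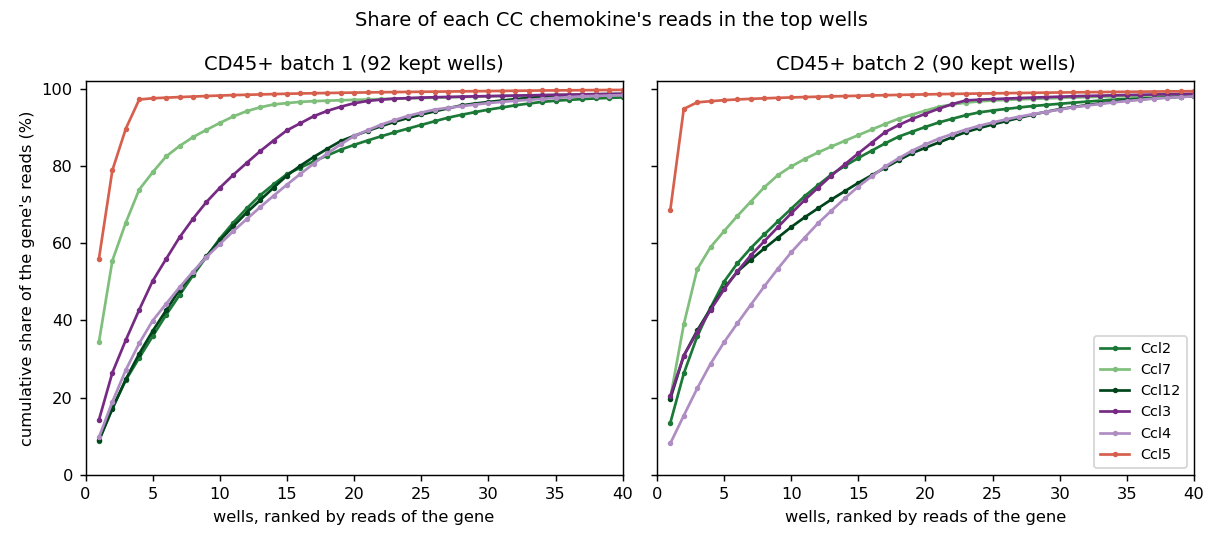
The cumulative share of each chemokine's reads (vertical axis, percent) is plotted against the kept CD45+ wells ranked by reads of that gene (horizontal axis, first 40 wells), with batch 1 on the left and batch 2 on the right. Ccl5 exceeds 94% after 2 wells in batch 2 and stands at 78.9% after 2 wells in batch 1, Ccl7 rises next, and Ccl2, Ccl12, Ccl3 and Ccl4 need 5 to 9 wells to reach 50% of their reads.

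Low reads of the chemokines were found across the CD45+ plates, also in their shallow wells. Shallow here means under 50000 reads, which held for 20 wells of batch 1 and 18 of batch 2, of which 16 and 12 had passed the filters and were kept as cells. In these wells the medians were 94.5 and 32.5 reads of Ccl4, 49 and 33 of Ccl12, 13.5 and 9 of Ccl2, 10.5 and 14.5 of Ccl7, 11 and 9 of Ccl3, and 1 and 5 of Ccl5. Each median was between 0.0125% and 0.0332% of the plate's reads of that gene. Summed over the shallow wells, Ccl4 stood at 5231 and 2291 CPM and Ccl12 at 3320 and 2352 CPM. After thinning each well of at least 50000 reads to 50000, a Ccl4 read was found in 76 of 76 and 77 of 78 CD45+ wells and a Ccl12 read in 75 of 76 and 78 of 78, shares that include such low reads. Whether these reads came from the wells' own cells or from free or carried-over RNA was not tested.

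A stricter count, chosen after the values were seen, took the deeper wells with more reads of a gene than any shallow well of the same plate, which is a limit in reads and not a test of presence. By this count Ccl2 was found in 39 of 76 CD45+ wells in batch 1 and 43 of 78 in batch 2, Ccl12 in 35 and 47, Ccl4 in 38 and 43, Ccl3 in 29 and 29, and Ccl7 in 19 and 42. Ccl5 was found in 5 and 29 wells. These wells held between 96.9% and 98.9% of all reads of each gene on its plate. At least 1 member was found in 59 of 76 wells (77.6%) and 69 of 78 (88.5%), at least 3 in 31 (40.8%) and 47 (60.3%), and all 6 in 1 and 4 wells. In 17 and 9 wells no member passed this limit, which does not show that they lacked the genes. In batch 1, 76 of 76 wells, these 17 among them, had 100 CPM or more of Ccl4, a level also found in shallow wells. In batch 2, 66 of 78 wells did, which does not say how many of the 9 were among them.

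The rank correlations below also hold these low reads. In wells in which neither gene of a pair exceeded the shallow wells, the median Spearman's rho of the 15 pairs was 0.71 and 0.73, against 0.11 and 0.13 in wells in which both did (pairs with at least 6 such wells). The pairs are therefore described first by the wells in which both genes exceeded the shallow wells. The percentages of shared wells are to be read against the share of all deeper wells that passed for the partner gene. That share was 51.3% and 55.1% for Ccl2, 46.1% and 60.3% for Ccl12, and 50% and 55.1% for Ccl4. It was 38.2% and 37.2% for Ccl3, and 25% and 53.8% for Ccl7.

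Most wells with high Ccl3 also had high Ccl4, and the levels of both were correlated within the shared wells in both batches. Of the 29 wells with Ccl3 above the shallow wells in each batch, 22 in batch 1 (75.9%) and 26 in batch 2 (89.7%) also held Ccl4 above them, which were 57.9% and 60.5% of the Ccl4 wells. Over all CD45+ wells of at least 50000 reads, rho of their CPM was 0.56 (76 wells) and 0.61 (78 wells). Within the wells that held both, it was 0.48 (22 wells) and 0.56 (26 wells). The plot of paired levels shows a cloud with both genes high and, apart from it, wells with high Ccl4 and low Ccl3.

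Among the monocyte chemoattractants, Ccl2 and Ccl12 shared most of their wells. Ccl2 and Ccl12 were both above the shallow wells in 30 wells of batch 1 and 35 of batch 2, which was 76.9% and 81.4% of the Ccl2 wells and 85.7% and 74.5% of the Ccl12 wells. Their rho was 0.59 and 0.52 over all wells, and 0.07 and 0.31 within the wells that held both. Ccl7 was found with Ccl2 in 14 and 30 wells (73.7% and 71.4% of the Ccl7 wells), with a rho of 0.40 and 0.46 over all wells and 0.43 and 0.42 within the wells that held both. Ccl7 and Ccl12 had a rho of 0.32 and 0.48 over all wells.

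Ccl4 also shared wells with Ccl2 and with Ccl12, in both batches fewer than the 30 and 35 that Ccl2 and Ccl12 shared. Ccl2 and Ccl4 were both above the shallow wells in 26 and 33 wells (66.7% and 76.7% of the Ccl2 wells, 68.4% and 76.7% of the Ccl4 wells), and Ccl12 and Ccl4 in 26 and 32 (74.3% and 68.1% of the Ccl12 wells, 68.4% and 74.4% of the Ccl4 wells). Within these wells rho was 0.14 and 0.005 for Ccl2 with Ccl4, and 0.13 and 0.17 for Ccl12 with Ccl4. Ccl7 and Ccl3 shared 8 and 18 wells (42.1% and 42.9% of the Ccl7 wells, 27.6% and 62.1% of the Ccl3 wells). Of all CD45+ wells of at least 50000 reads, 38.2% and 37.2% passed for Ccl3 and 25% and 53.8% for Ccl7. The percentages of shared wells of this pair were little higher. Over all wells, the 6 pairs of Ccl2, Ccl7 or Ccl12 with Ccl3 or Ccl4 had a median rho of 0.29 in batch 1 and 0.20 in batch 2, from 0.003 (Ccl7 and Ccl3, batch 2) to 0.53 (Ccl12 and Ccl4, batch 1). Ccl4 was nearer to Ccl2 (0.48 and 0.39) than Ccl3 was (0.31 and 0.28). The 5 pairs with Ccl5 had medians of 0.14 and 0.003. All 15 pairs had a median rho of 0.31 and 0.13.

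The wells of a plate share a library and differ in depth, and the rank correlations with total reads ran from -0.33 (Ccl7) to 0.10 (Ccl12) in batch 1 and from -0.39 (Ccl5) to 0.16 (Ccl2) in batch 2. Given total reads, the median partial rho was 0.31 and 0.13, as without it.

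**Figure D3:**
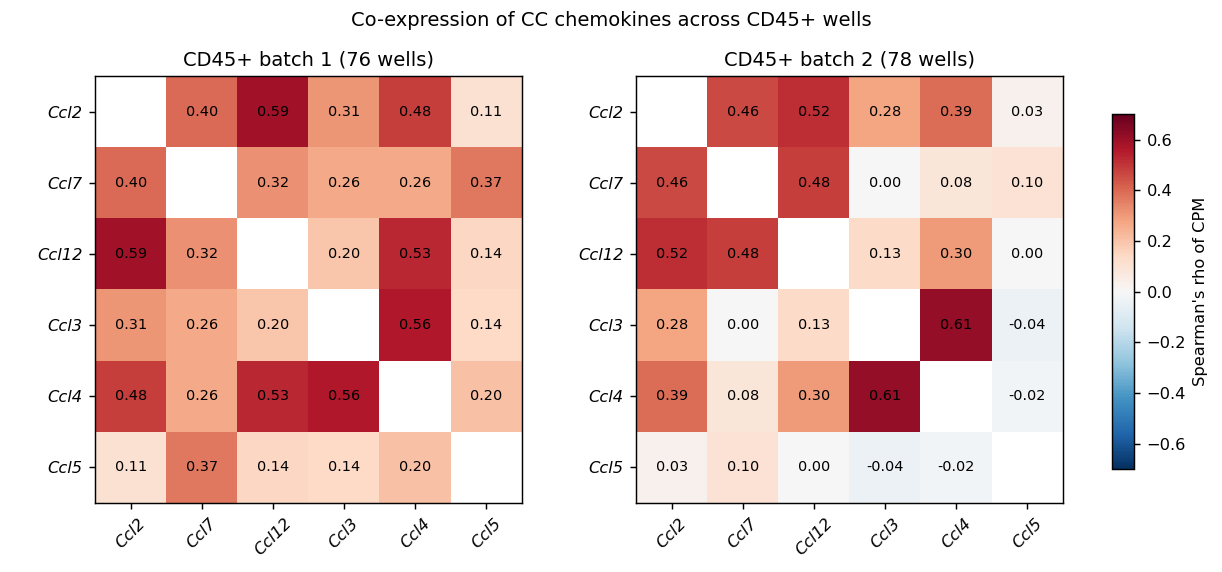
Each square gives Spearman's rho of CPM for a pair of chemokines across CD45+ wells of at least 50000 reads, with 76 wells of batch 1 on the left and 78 of batch 2 on the right, and red for positive values. Ccl3 with Ccl4 (0.56 and 0.61) and Ccl2 with Ccl12 (0.59 and 0.52) are the darkest squares in both batches, and the Ccl5 row is pale in batch 2.

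**Figure D4:**
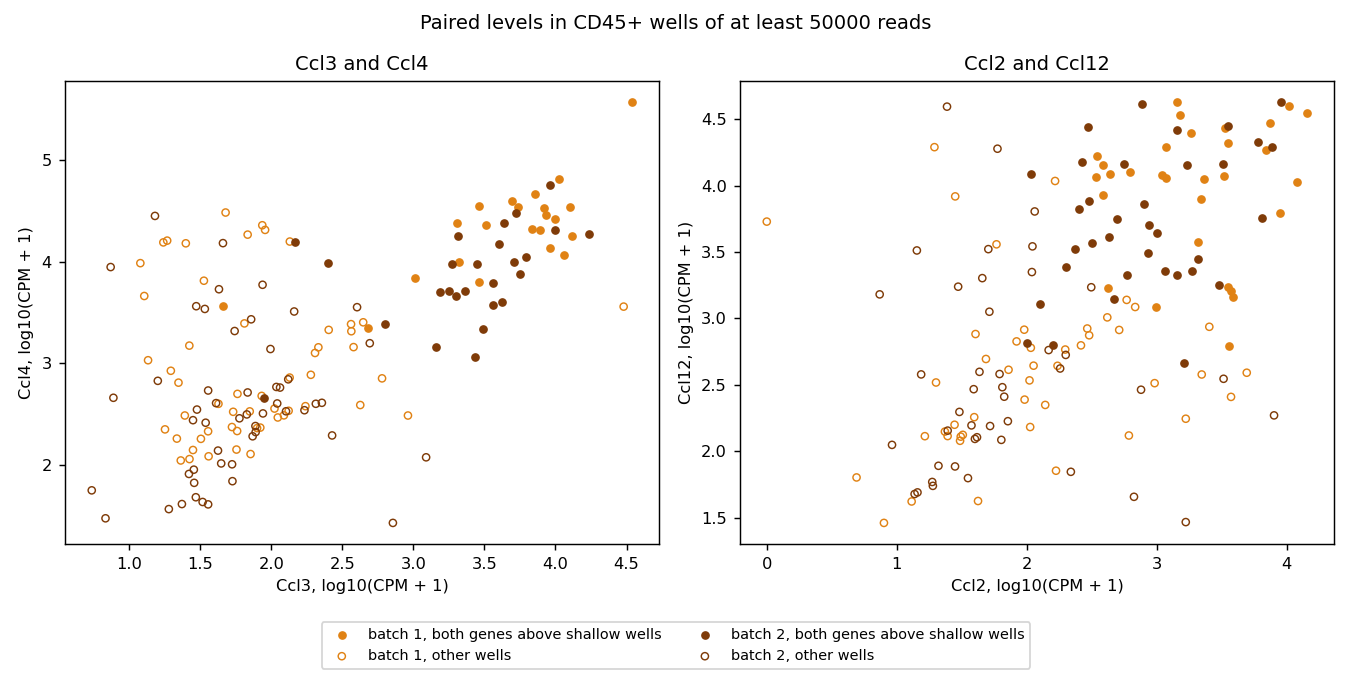
Levels of paired chemokines as log10(CPM + 1) per CD45+ well of at least 50000 reads, Ccl3 against Ccl4 on the left and Ccl2 against Ccl12 on the right, coloured by batch. Filled points are wells with more reads of both genes than any shallow well of the plate (22 and 26 wells on the left, 30 and 35 on the right) and open points are all others, which include a low diagonal band.

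The genes most like each member were then ranked by the smaller rho of both batches, among 2749 genes with a read in at least 20% of the CD45+ wells in both. For Ccl2 they were Ccl12 (0.59 and 0.52), C1qa (0.47 and 0.50) and C1qb (0.57 and 0.42), which encode chains of complement C1q and mark macrophages, the early response gene Fos (0.47 and 0.46), and Ly86 (0.49 and 0.41), a partner of a Toll-like receptor relative. Ccl12 had Ccl2, Fos (0.43 and 0.54), C1qa (0.42 and 0.46), Ly86 (0.42 and 0.42) and Pf4 (0.56 and 0.40), a CXC chemokine of platelets and some macrophages. The top genes of Ccl2 and Ccl12 thus shared C1qa, Fos and Ly86.

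For Ccl4 they were Ccl3, Ccl2, Cd14 (0.39 and 0.45), a co-receptor for bacterial lipopolysaccharide, Zfp36 (0.36 and 0.35), which promotes decay of cytokine mRNAs, and Rgs1 (0.35 and 0.35), a regulator of G-protein signalling. For Ccl3 they were Ccl4, Ppp1r15a (0.42 and 0.35), a stress-induced phosphatase subunit, the transcription factor gene Klf6 (0.29 and 0.33), Ccl2 and C1qc (0.28 and 0.27). Ccl7 had Ccl2 and Ccl12 and then Tm9sf3, Snrpd1 and Dynll2, at rho values of 0.30 to 0.36. Ccl5 had Vsir (0.35 and 0.44), Slpi, Map3k8, Lpxn and Fis1. With wells thinned to 50000 reads, 4, 3, 3 and 5 of the 5 genes recurred for Ccl2, Ccl12, Ccl3 and Ccl4, but 1 of 5 for Ccl7 and 0 of 5 for Ccl5, so the last 2 lists did not hold at equal depth.

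The summed macrophage markers (Adgre1, Csf1r, C1qa, C1qb, C1qc, Cd68, Mrc1 and Fcgr1) had a positive rank correlation with Ccl2 (rho 0.56 and 0.40) and Ccl12 (0.50 and 0.40) across CD45+ wells. The values were 0.30 and 0.38 for Ccl4, 0.24 and 0.12 for Ccl3, 0.12 and 0.13 for Ccl7, and -0.06 and -0.06 for Ccl5. Other lists were higher for some members. Neutrophil markers (S100a8, S100a9, Csf3r, Retnlg and Ly6g) had 0.43 and 0.07 with Ccl3, and 0.43 and 0.15 with Ccl7. With Ccl3, fibroblast markers had 0.37 and 0.17, and red blood cell markers 0.13 and 0.33. The immediate early and stress genes, whose transcripts also rise when tissue is digested, had a rho of 0.30 and 0.46 with Ccl2, 0.23 and 0.48 with Ccl12, 0.33 and 0.31 with Ccl4, and 0.16 and 0.24 with Ccl3. Their part in the chemokine levels was not tested. The summed level of that list per CD45+ well ran from 76.98 to 34570 CPM in batch 1 and from 265 to 30560 CPM in batch 2, and in CD45- wells from 11.4 to 6396 CPM and from 40.9 to 18064 CPM.

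Fos, a gene most like Ccl12 above, encodes a part of the transcription factor AP-1, and the bases before the start of Ccl12 were searched for its motif. The 250 bases upstream of Ccl12 in the RefSeq table (GRCm38.p6, chr11:82101595-82101844, + strand) are printed with a TATA box, TATAAA, in capitals.
Ccl12 upstream: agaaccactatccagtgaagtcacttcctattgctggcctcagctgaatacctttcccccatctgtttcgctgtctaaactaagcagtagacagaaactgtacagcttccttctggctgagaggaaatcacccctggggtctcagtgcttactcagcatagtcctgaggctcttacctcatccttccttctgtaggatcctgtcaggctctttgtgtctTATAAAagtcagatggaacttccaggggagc
The AP-1 motif TGANTCA had no match on either strand in this window, and 6.87% of 27025 windows of 250 bases hold one, which says only that these letters are not here. TATAAA was matched once, from position -31 to -26 before the start, and in 12.97% of windows.

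The wells richest in Ccl5 did not look alike. In batch 2, well 53 (101135 CPM of Ccl5) held 50847 CPM of the 12 T and NK cell markers, among them the cytotoxic granule genes Gzma at 29327 CPM and Nkg7 at 20485 CPM, with 2128 CPM of macrophage markers. Well 71 (9949 CPM of Ccl5) held 10382 CPM of T and NK cell markers, with Nkg7 at 5871 CPM and Gzma at 0, together with 31054 CPM of macrophage markers. In batch 1, well 30 (20672 CPM of Ccl5) had no read of any of the 12 T and NK cell markers, and held 14981 CPM of macrophage markers with 8539 CPM of Ccl12. The other batch 1 wells with more than 1000 CPM of Ccl5 were wells 73, 9 and 83, with 16974, 22483 and 10366 CPM of macrophage markers and 5.92, 0 and 1395 CPM of T and NK cell markers. Batch 2 had 3 wells of at least 50000 reads with 1000 CPM or more of Ccl5. Of these, wells 53 and 71 are described here. The remaining well held fewer Ccl5 reads and its markers are not given, so the comparison below leaves it out. By reads of Ccl5, the next wells of batch 2 were wells 9 and 65, at 652 and 283 CPM. They held 27040 and 43929 CPM of macrophage markers and 10.6 and 27.1 CPM of T and NK cell markers. Wells 53 and 71 of batch 2 thus carried T and NK cell markers, with macrophage markers beside them in well 71. The wells named for batch 1 carried macrophage markers, with T and NK cell markers beside them in well 83. Wells 9 and 65 of batch 2 carried macrophage markers too.

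Across CD45+ wells of at least 50000 reads, Ccl5 and the T and NK cell markers had a rho of 0.72 in batch 2 and -0.08 in batch 1. In the 94 wells of the batch 2 plate other than 53 and 71, there were 0.155 reads of Nkg7 for each read of Ccl5, against 0.203 in well 53 and 0.590 in well 71. Gzma stood at 0.0955 there, against 0.290 and 0. In batch 1 the order was the other way: the 94 wells other than 30 and 73 had 1.33 reads of Nkg7 and 0.873 of Gzma for each read of Ccl5, while well 30 had no read of either and well 73 had 1 and 3 reads. In batch 1, 3 of 76 CD45+ wells of at least 50000 reads had 1000 CPM or more of T and NK cell markers. The highest had 39064 CPM and the median 3.57 CPM. The highest was none of the batch 1 wells with more than 1000 CPM of Ccl5, but well 83, at 1395 CPM, was 1 of the 3. The ratios of the 94 wells are pooled and can rest on few wells. Whether the reads of the 94 wells came from their own cells was not tested.

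In the CD45- plates, each chemokine came from few wells. Wells with at least 100 CPM of a member and at least 50000 reads numbered 10 of 79 in batch 1 and 11 of 82 in batch 2, and 69 and 71 wells had no member at that level. Of these wells, 10 of 10 and 8 of 11 held 1 member alone at 100 CPM or more, whereas the median CD45+ well held 4. In the CD45+ plates that level lies within the low reads found also in shallow wells. By the stricter count above, at least 3 members were found in 40.8% and 60.3% of CD45+ wells. Among all kept CD45- wells, those at 100 CPM or more, shallow ones included, held between 74.4% and 96.5% of the reads of each member on its plate, apart from Ccl3 in batch 1, with 18 reads in all and no such well.

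The CD45- wells were labelled by the marker list with most CPM in them, red blood cell markers left aside. The fibroblast list was on top in 41 of 79 and 39 of 82 CD45- wells of at least 50000 reads and the endothelial list in 23 and 23. Of the wells of that depth at 100 CPM or more, it was fibroblast in 3 of 4 for Ccl2, and fibroblast in 3, endothelial in 2 and leukocyte in 1 of 6 for Ccl7, so for Ccl7 the fibroblast share was about that of all wells. The endothelial wells were wells 36 and 90 of batch 2, with 150 and 890 CPM of Ccl7. Well 36 held 57 reads of Ccl7 and the CD45+ well at its position 756. Well 90 also had 1255 CPM of leukocyte and 1344 CPM of macrophage markers. Of the fibroblast wells with Ccl2, well 2 of batch 2 had 1655 CPM of leukocyte and 1290 CPM of macrophage markers. It held 80 reads of Ccl2 and the CD45+ well at its position 602. Most CD45- reads of Ccl2 and Ccl7 lay in wells led by fibroblast markers. Well 27 of batch 2 held 1515 reads of Ccl2 (1896 CPM) and 3882 reads of Ccl7 (4857 CPM), which were 87.9% and 84.6% of those genes' CD45- reads in that batch. It had 17115 CPM of fibroblast markers, with the collagen gene Col1a1 at 5510 CPM, 6764 CPM of pericyte and smooth muscle markers, 522 CPM of leukocyte markers and 0 CPM of Ptprc, the gene for CD45. In batch 1, well 87 held 92 of the 106 Ccl2 reads (316 CPM), and wells 82 and 58 held 198 and 189 of the 414 Ccl7 reads. Fibroblast markers summed to 10519, 5829 and 12151 CPM in these wells and leukocyte markers to 24.1, 2.99 and 35.5 CPM. The CD45+ wells at the same positions held 14 reads of Ccl2 (well 87) and 13 and 644 of Ccl7 (wells 82 and 58), so at well 87 and well 82 the CD45- well held more than its CD45+ counterpart. Without well 27 the batch 2 log2 ratios were 7.18 for Ccl2 and 6.28 for Ccl7, without well 87 the batch 1 ratio of Ccl2 was 10.02, and without well 58 or 82 that of Ccl7 was 7.29 or 7.31.

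Ccl5 in CD45- rested on 1 well in each batch. The fibroblast list was on top in both, as in 41 of 79 and 39 of 82 of all CD45- wells, so these 2 wells do not set Ccl5 apart. Well 21 of batch 1 held 339 of 352 reads (767 CPM), with 15100 CPM of fibroblast markers, 14387 CPM of pericyte and smooth muscle markers and Pdgfrb at 867 CPM. Well 4 of batch 2 held 845 of 1012 reads (4280 CPM), with 100962 CPM of fibroblast markers, 45907 CPM of Col1a1 and no Pdgfrb read. The 12 T and NK cell markers had no read in either well, and the CD45+ wells at these positions held 0 and 5 reads of Ccl5. Without these wells the log2 ratios of Ccl5 were 7.71 and 7.79.

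Most CD45- wells of at least 50000 reads at 100 CPM or more of Ccl4 or Ccl12 were rich in endothelial transcripts. By the same labels, 4 of the 6 wells with Ccl4 at 100 CPM or more and 4 of the 6 with Ccl12 had the endothelial list on top. Of all CD45- wells, 23 of 79 and 23 of 82 did. These are counts of wells, and in batch 2 well 51, led by the leukocyte list, held 58.2% of the CD45- Ccl12 reads. Well 51 of batch 1 held 262 reads of Ccl4 (1503 CPM), and well 82 of batch 2 held 377 of Ccl4 (1674 CPM) and 133 of Ccl12 (591 CPM). Their endothelial markers summed to 7073 and 9029 CPM, with the sialomucin gene Emcn at 3740 and 4011 CPM, and Pdgfrb stood at 229 and 4.44 CPM. Well 13 of batch 1 held 172 reads of Ccl12 (1161 CPM), with 11662 CPM of endothelial markers and 2571 CPM of Pecam1, an adhesion molecule of endothelium. Leukocyte markers summed to 5914, 973 and 47.2 CPM in these wells and macrophage markers to 22.9, 3078 and 2133 CPM, with Ptprc at 0. Wells 32 and 89 of batch 1, the other Ccl12 wells led by the endothelial list, held 6551 and 1783 CPM of leukocyte markers. Their macrophage markers summed to 1597 and 1793 CPM. Wells 1 and 43 of batch 1, the other such Ccl4 wells, held 114 and 0 CPM of macrophage markers. The median CD45- well of at least 50000 reads held 13.3 and 30.6 CPM of macrophage markers in batches 1 and 2. What part leukocyte or macrophage transcripts had in the chemokine reads was not tested. Without well 82 the batch 2 log2 ratio of Ccl4 was 8.44.

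A single CD45- well carried a leukocyte pattern along with several members. Well 51 of batch 2, of 108581 reads, held Ccl12 at 4559 CPM, Ccl7 at 2192 CPM and Ccl3 at 1446 CPM. It also held 41296 CPM of leukocyte markers, 22205 CPM of macrophage markers and 35964 CPM of Cd74, the invariant chain of MHC class II, with Ptprc at 9.21 CPM, and it had no read of Ccl2, Ccl4 or Ccl5. It held 74.4% of the CD45- Ccl3 reads and 58.2% of the Ccl12 reads of that batch, and the CD45+ well at its position held 20 and 1403 reads of them. Without it, the log2 ratio of Ccl3 was 9.15 and that of Ccl12 was 8.89.

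**Figure D5:**
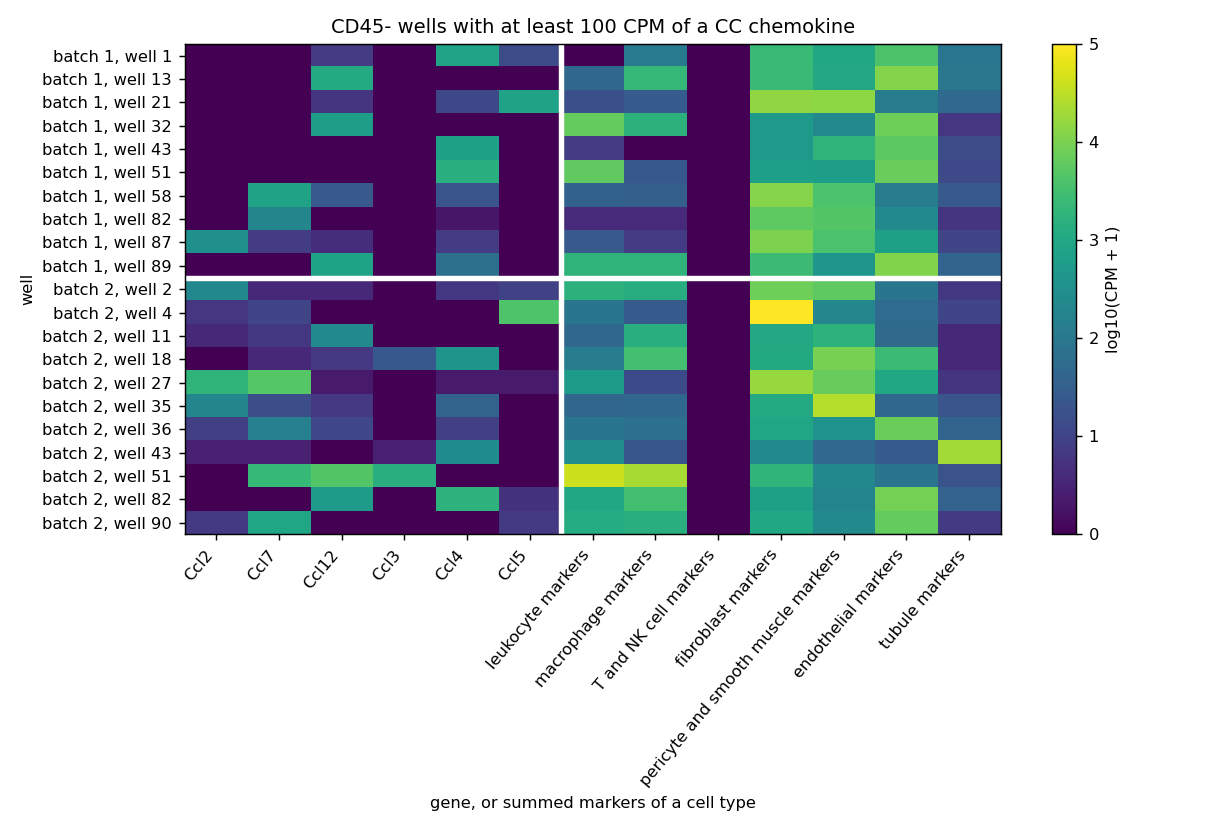
Rows are the 21 CD45- wells of at least 50000 reads with at least 100 CPM of a CC chemokine (10 of batch 1 above the white line, 11 of batch 2 below) and columns the 6 chemokines and the summed markers of 7 cell types, coloured by log10(CPM + 1). Most rows have 1 bright chemokine, the brightest Ccl2, Ccl7 and Ccl5 squares stand in rows with bright fibroblast squares, and the T and NK cell column is dark throughout.

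The remaining CD45- reads lay more often at plate positions rich in CD45+ reads of the same batch, Ccl5 apart. Pooled over the 6 members, among CD45- wells under 100 CPM of a member, a read of it was found at 76 of 96 positions (79.2%) where the CD45+ well of the same batch held at least 1000 reads of that member, and at 37 of 465 (7.96%) where it held fewer. In batch 2 the shares were 74 of 83 (89.2%) and 150 of 458 (32.8%). Set against the CD45+ plate of the other batch, they were 27.4% and 18.7% for batch 1 and 41.5% and 41.4% for batch 2. The median over the 6 members of the rank correlation between positions was 0.48 and 0.54 with the same batch and 0.05 and 0.02 with the other. By member, it was highest for Ccl4 (0.77 and 0.66), Ccl12 (0.72 and 0.62) and Ccl3 (0.54 and 0.64), with 0.43 and 0.22 for Ccl2 and 0.25 and 0.46 for Ccl7. Ccl5 did not show it, with 0.11 and 0.13 in the same batch and 0.14 and 0.16 in the other. All plates were pooled for sequencing and wells are told apart by a barcode that recurs in every plate, per the labels' protocols. Whether reads moved between plates was not tested.

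Of the receptors that read these chemokines, those of monocytes and macrophages were found in the same gate. Of 13 CC chemokine receptors, 5 had at least 1 CPM on average, and 4 of these were higher in CD45+ and 0 in CD45- (12.9% of all genes tested were called higher in CD45-). Ccr2, the receptor for Ccl2, Ccl7 and Ccl12, had 338 CPM in CD45+ and 0.886 CPM in CD45- of batch 1, and 342 and 10.5 CPM in batch 2. Ccr1, a receptor for Ccl3 and Ccl5, had 98.7 CPM in CD45+ and 0 CPM in CD45- of batch 1, and 54.1 and 0.0630 CPM in batch 2. Ccrl2, an atypical relative that binds chemerin, had 86.2 and 339 CPM in CD45+, where CD45- had 13.4 and 40.8.

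Of 13 other CC chemokines, 7 were tested, 3 were higher in CD45+ and 1 in CD45-, with medians of 0.57 and -0.37. Over all genes tested, 4.33% were higher in CD45+ and 12.9% in CD45-, shares that apply to each list below too. A single gene of 7 higher in CD45- is near that share. Their CD45+ levels were 2736 and 2014 CPM for Ccl6, 333 and 663 CPM for Ccl8, a further monocyte chemoattractant protein, and 269 and 362 CPM for Ccl9. The log2 ratios were 8.58 and 7.10 for Ccl6, 4.35 and 4.69 for Ccl8, and 4.67 and 5.33 for Ccl9. Ccl27a passed in neither direction (log2 ratio -0.80 and -0.51). The gene higher in CD45- was Ccl19, a ligand of Ccr7, with log2 ratios of -3.24 and -3.28. Of the 15 genes of the NF-kB pathway and its targets, which include regulators of chemokine transcription, 8 were higher in CD45+ and 0 in CD45-, with medians of 2.91 and 2.37. The 4 named by CD45+ CPM were Nfkbia, an inhibitor of NF-kB (1618 and 1837 CPM, log2 ratio 2.18 and 1.92, not called), the cytokine gene Il1b (1102 and 1645 CPM, 9.51 and 7.82), Nfkbiz (2.91 and 5.28) and Nfkbid (7.33 and 6.05). Of 15 immediate early and stress genes, 4 were higher in CD45+ and 1 in CD45-, among the first Zfp36 (2.67 and 2.45) and Btg2 (2.96 and 2.18), while Fos (1.51 and 2.07) passed in neither direction, and the medians were 2.47 and 1.94. None of the 9 interferon genes passed in either direction, with medians of 0.83 and -0.75.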

How the data were processed

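Single-cell libraries of 384 wells were made with a Clontech SMARTer kit, pooled by plate and sequenced in pairs, per the labels' protocols. The authors deposited raw read counts per gene and well, 1 table per batch. The submitters' processing notes name STAR with the version 3.0.4, featureCounts with 1.4.5, and Subread, and give no role for them. For the genome build, annotation, strand setting and reads with several matches, the sources used here give nothing, and molecular identifiers were not stated.

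From the counts, 598 and 595 repeated lines (2.39% and 2.42% of counts) were dropped, and wells with at least 10000 reads and 500 genes were kept. Levels are CPM of reads summed over a plate's kept wells. Gates were compared as log2 ratios with a pseudocount of 1, which understates ratios of low genes. Values were not scaled by gene length, so CPM of different genes were set against each other only to choose named genes, to label wells by marker list and to give reads of a gene per read of Ccl5. The rules that set shallow wells apart, the partial correlation given total reads and the omission of the top pair of wells were added after seeing the data. The members, lists and level limits were chosen with earlier results of these data known. Named genes were the 6 members, the 4 most abundant members of each list of pathway genes and the 5 genes most like each member; others named in the text are defining markers of single wells or members of these lists, chosen after their values were seen. The calling rule and the ranking by rank correlation were tested on simulated counts. The values of 1 gene of the receptor list are not reported here. Intervals are exact Clopper-Pearson 95% intervals and cover counting error only. Sequences come from GENCODE M21 and RefSeq tables, whose promoter table held 2 of the 6 members. Python 3.11.15, numpy 2.4.6, pandas 2.3.3, scipy 1.17.1, R 4.3.3 and edgeR 4.0.16 (TMM factors only) were used.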

Additional observations from a re-analysis of the deposited data

Results flagged for a closer look

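Chemokine reads were also found in wells left out for low depth. In the 3 CD45- wells of batch 2 left out (5648 to 8719 reads each), Ccl12 stood at 182 CPM (4 reads) and Ccl5 at 728 CPM (16 reads), above the 26.8 and 31.9 CPM of the kept wells of that plate. The 4 Ccl12 reads lay in 1 of the 3 wells and so did the 16 Ccl5 reads, so each value rests on a single well.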

How the results depend on the processing

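All 6 members stayed called under a pseudocount of 0.1 or 10, the mean of well CPM, TMM factors, levels without hemoglobin and mitochondrial reads, wells of at least 50000 reads, no filter on wells, repeated lines summed, the top well of each member left out, limits of 2-fold and 8-fold, and each well left out in turn (6 to 6 members). Of 144 ratios under these settings and without the pair of top CD45+ wells, 144 were above 0 and 143 at least 4-fold. TMM factors moved the median of all genes by 0.29 and 0.46 on the log2 scale. The median rho of the 15 pairs ran from 0.29 to 0.33 in batch 1 and from 0.10 to 0.17 in batch 2 with each well left out. In wells in which both genes exceeded the shallow wells it was 0.11 in batch 1, and in wells in which neither did it was 0.71 and 0.73. No paired analysis was possible because the plates gave no test and well numbers name positions only. Read depth limits how many wells show a single read of Ccl5. The limit set by the shallow wells is in reads, most of those wells were kept as cells, and the source of their chemokine reads was not tested.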
